A study of Mus musculus with 6 samples.

Results

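The genes described here encode regulators of G protein signalling (RGS proteins) and TBC-domain proteins, most of which are GTPase-activating proteins of Rab GTPases. They were taken as the probe sets with exactly 1 gene symbol on the array platform that begins with Rgs and a digit or with Tbc1d, each gene being read from its brightest probe set. This gave 20 RGS genes and 30 TBC genes, together 50 of 18820 tested genes. Of the 20 RGS genes, 18 encode proteins with an RGS domain, and Rgs7bp and Rgs9bp encode binding proteins without one. Rgs10, Rgs21 and Rgs22 were not analysed here. RNA came from bone marrow-derived macrophages of mice labelled GPS2KO (3 arrays) and of wild-type mice (WT, 3 arrays), males aged 12 to 16 weeks in both groups. GPS2 (G protein pathway suppressor 2) belongs to a complex that represses transcription. Cells of both groups were grown for 7 days with 30% medium conditioned by L929 cells, a fibroblast line that secretes macrophage growth factor, and were left untreated. The labels call the knockout KO or MKO without naming deleted exons or a Cre driver, and they leave unsaid whether every array came from its own animal. The p-values below therefore reflect the scatter of these samples alone, part of which may be technical.

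RGS proteins speed up the hydrolysis of GTP by G protein alpha subunits and so end signals from chemokine, complement, purine and lipid receptors. TBC-domain proteins do the same for Rab GTPases, which direct the traffic of endosomes, phagosomes and secretory vesicles. Both families thus act as off-switches, the RGS proteins at receptors and the TBC proteins on internal membranes. In macrophages the processes they touch include migration towards chemokines, phagosome maturation and receptor recycling.

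Gps2 was at 10.29, 10.16 and 10.19 on the GPS2KO arrays, against 10.94, 10.93 and 11.00 on the WT arrays, all in log2 units. It fell by 0.75 on the log2 scale, to 59.7% of the WT signal (limma adjusted p = 0.000256). The exact permutation test, two-sided, gave p = 0.1, and no smaller value can be had from 3 arrays against 3. Array medians over all probe sets ran from 5.57 to 5.60, and correlations across genes were at least 0.9989 within groups and at most 0.9981 between groups. All 8 tested macrophage markers were above the dim limit, 2 of them rose, and their mean log2 signal was 12.06 to 12.08 on GPS2KO arrays and 11.98 to 12.01 on WT arrays. All 4 erythroid markers tested lay under the dim limit, a mean signal of 5.49 below which 40% of tested genes lie. So did 6 of 9 dendritic cell markers and 6 of 8 mast cell and basophil markers, lists in which 0 genes had a limma adjusted p under 0.05. Also under it were 5 of 6 B cell markers, 6 of 7 T and NK cell markers and 6 of 8 neutrophil markers. Among those above it, 1 B cell marker fell by 0.46, and 1 T and NK cell marker and 1 neutrophil marker rose by 0.43 and 0.46. Osteoclast markers had 2 rises and 1 fall among 8 and a mean of 7.22 to 7.31 in GPS2KO and 7.16 to 7.20 in WT, and megakaryocyte markers 1 rise and 1 fall among 6 and a mean of 7.02 to 7.06 in GPS2KO and 7.14 to 7.23 in WT. The markers of fibroblasts had 3 falls and 1 rise among 9. Their mean was 8.89 to 8.98 in GPS2KO and 8.94 to 9.02 in WT. Beside these counts, 6.72% of all tested genes had a limma adjusted p under 0.05, and 10.6% of those above the dim limit. The part of any of these cell types in the results below was not tested. Fewer cells of a type and less RNA per cell cannot be told apart in such bulk samples.

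Promoter sequences are shown for 4 members that passed the test, namely Rgs2 and Rgs16, close relatives whose signals moved in opposite directions, and Tbc1d9 and Tbc1d12, the TBC members that rose. They hold the 250 bases before the annotated start, 5′ to 3′ on the gene's strand, from RefSeq on assembly GRCm38.p6. Capitals mark the CCAAT box, spelled CCAAT or ATTGG on the other strand, which was the only searched motif found in them.
Rgs2, chr1:144004150-144004399, minus strand: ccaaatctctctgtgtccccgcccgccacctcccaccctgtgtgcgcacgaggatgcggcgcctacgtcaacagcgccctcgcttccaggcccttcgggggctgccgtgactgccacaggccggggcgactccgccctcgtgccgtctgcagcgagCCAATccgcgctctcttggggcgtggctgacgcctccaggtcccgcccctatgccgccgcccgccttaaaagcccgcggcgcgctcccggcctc
Rgs16, chr1:153740103-153740352, plus strand: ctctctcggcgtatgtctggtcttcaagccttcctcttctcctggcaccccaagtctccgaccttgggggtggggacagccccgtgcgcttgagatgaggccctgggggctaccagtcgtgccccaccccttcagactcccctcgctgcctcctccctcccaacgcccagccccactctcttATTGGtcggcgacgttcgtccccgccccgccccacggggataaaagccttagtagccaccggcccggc
Tbc1d9, chr8:83165102-83165351, plus strand: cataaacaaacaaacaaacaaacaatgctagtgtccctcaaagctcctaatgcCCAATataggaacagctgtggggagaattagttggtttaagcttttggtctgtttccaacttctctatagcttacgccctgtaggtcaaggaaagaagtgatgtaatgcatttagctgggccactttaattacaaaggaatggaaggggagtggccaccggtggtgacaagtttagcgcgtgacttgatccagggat
Tbc1d12, chr19:38836329-38836578, plus strand: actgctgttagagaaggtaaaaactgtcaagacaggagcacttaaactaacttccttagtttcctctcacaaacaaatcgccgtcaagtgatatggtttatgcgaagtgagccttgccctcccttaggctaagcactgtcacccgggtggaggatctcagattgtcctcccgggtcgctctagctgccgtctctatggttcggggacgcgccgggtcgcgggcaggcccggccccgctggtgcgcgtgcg
The CCAAT box began 94 bases before the start in Rgs2, 68 in Rgs16 and 197 in Tbc1d9. Of these windows, that of Rgs2 was 72.4% G or C with 30 CpG pairs, and that of Tbc1d9 was 44.0% G or C with 4 CpG pairs. The window of Rgs16 had 66.4% G or C and 17 CpG pairs, and that of Tbc1d12 had 56.8% and 18.

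In GPS2KO macrophages 3 of the 20 RGS genes rose and 2 fell, and 2 of the 30 TBC genes rose and 4 fell. Rgs1, which limits chemokine-driven migration, rose 1.37-fold, and Rgs2, a regulator that prefers the Gq class, rose 1.18-fold. The signals standing for Rgs3 and Rgs16 fell 1.39-fold and 1.26-fold, the first read from a probe set numbered among genes of another chromosome. Among TBC genes, Tbc1d12 and Tbc1d9 rose 1.23-fold and 1.22-fold, and Tbc1d8 fell 1.27-fold. The share past the threshold was 25.0% of RGS genes and 20.0% of TBC genes, while over all tested genes 6.72% passed, with 2.90% rising and 3.83% falling. Among genes above the dim limit, 5 of 11 RGS genes and 6 of 29 TBC genes passed, against 10.6% of all 11292 such genes (4.54% rising and 6.06% falling). The members were chosen with earlier results of these data known, so their shares are not independent of those results. Centring arrays on the median of the tested genes gave 4 TBC rises and 3 falls, and quantile normalization gave 3 and 3. Leaving out 1 array at a time left 1 to 3 TBC falls, with 1 without GPS2KO replicate 3, 3 without WT replicate 1 and 2 without any other array. TBC rises numbered 1 without GPS2KO replicate 2 or WT replicate 1, and RGS falls 1 without GPS2KO replicate 2, GPS2KO replicate 3 or WT replicate 1. Over all tested genes 545 rose and 720 fell, against 322 to 376 and 419 to 503 with 1 array left out, 460 and 1061 after centring on the median of all probe sets and 659 and 568 after centring on the tested genes. The median change was 0.04 for RGS genes, 0.01 for TBC genes and -0.01 for all tested genes. The median size of change, whichever its direction, was 0.09 for RGS genes, 0.06 for TBC genes and 0.06 for all tested genes. The adjusted p-values are from limma with Benjamini-Hochberg adjustment over all 18820 genes, a change is the GPS2KO mean less the WT mean in log2 units, and n = 3 arrays in each group.

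**Figure D1:**
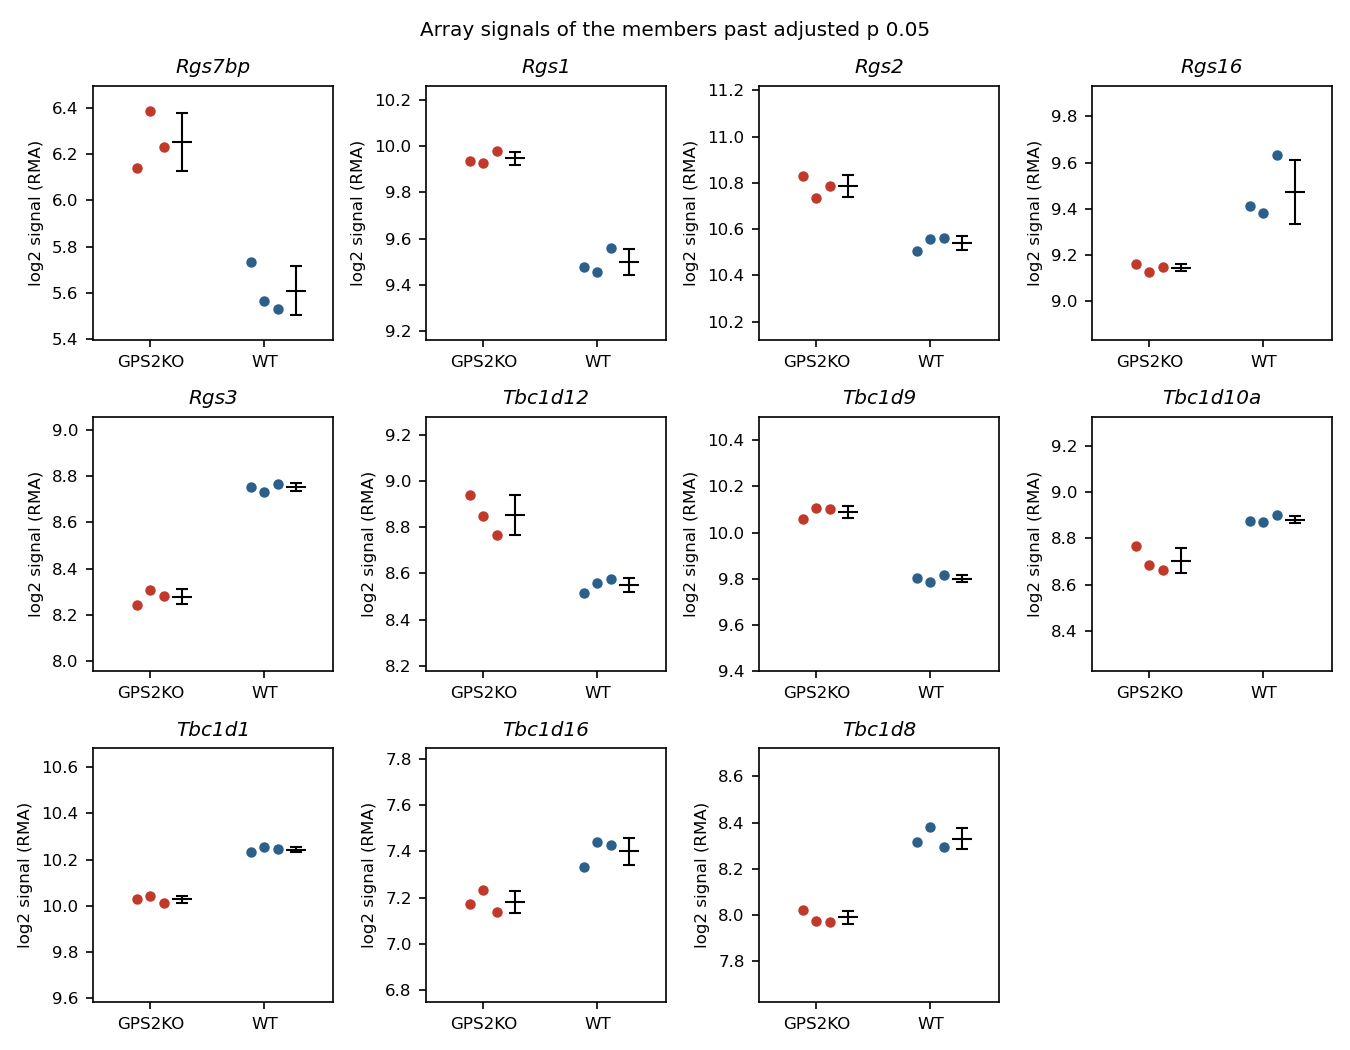
Signals of the 11 members past the threshold, with 1 point for each array (log2 RMA signal, GPS2KO left and WT right) and the mean ± SD of 3 arrays beside the points. The vertical axes span the same log2 distance in each panel, and the groups do not overlap in any of the 11.

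The R4 subfamily, small RGS proteins that act on the Gi and Gq classes, held all 4 RGS-domain genes that passed. Among them is Rgs3, whose probe sets gave different results, as described below. Of its 9 tested members 2 rose, 2 fell and 5 did not pass, a share of 44.4% beside 6.72% of all tested genes. Above the dim limit 4 of 5 passed, against 10.6% of all such genes. Dim signals were seen for 4 of the 9 R4 genes, 2 of 3 genes of the RZ subfamily, 3 of 4 of R7 and 0 of 2 of R12. Rgs1 had log2 signals of 9.93, 9.93 and 9.98 on GPS2KO arrays, against 9.48, 9.45 and 9.56 on WT arrays. It averaged 9.95 ± 0.03 in GPS2KO and 9.50 ± 0.06 in WT (SD, n = 3 each), a rise of 0.45 (SE 0.0434, 95% confidence interval 0.35 to 0.55, adjusted p = 0.00121). All GPS2KO arrays lay above all WT arrays, and the call held without any 1 of the 6 arrays, at adjusted p of at most 0.00792.

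Rgs2, which acts most readily on Gq and so on signals through phospholipase C, was at 10.83, 10.74 and 10.79 on GPS2KO arrays and at 10.51, 10.56 and 10.56 on WT arrays. Its means were 10.78 ± 0.05 in GPS2KO and 10.54 ± 0.03 in WT, a rise of 0.24 (SE 0.0420, adjusted p = 0.0143). The groups did not overlap, but the call ended without WT replicate 1 (adjusted p = 0.0534), GPS2KO replicate 1 (0.0537) or GPS2KO replicate 3 (0.0563).

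Rgs16, an RGS protein induced by activation in lymphocytes, was at 9.16, 9.13 and 9.15 in GPS2KO, against 9.41, 9.38 and 9.63 in WT. It fell by 0.33 on the log2 scale (SE 0.0679, adjusted p = 0.0299), with means of 9.15 ± 0.02 in GPS2KO and 9.47 ± 0.14 in WT. The GPS2KO arrays lay close together below all WT arrays, and the spread of WT came mostly from replicate 3. Without that array the change was -0.25 (adjusted p = 0.0261). The call ended when GPS2KO replicate 1 (adjusted p = 0.0803), 2 (0.101) or 3 (0.0875) was left out, and likewise for WT replicate 1 (0.0550).

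Rgs3, which acts on Gi and Gq and has long and short isoforms, was measured by a pair of probe sets with different results. The brighter one, which stood for the gene, was at 8.24, 8.31 and 8.28 in GPS2KO and at 8.75, 8.73 and 8.77 in WT. Its signal changed by -0.47 (adjusted p = 0.000532, SE 0.0379, 95% confidence interval -0.56 to -0.39), and the call held without any 1 of the arrays. The dimmer one was at 5.45, 5.39 and 5.44 in GPS2KO, against 5.60, 5.32 and 5.61 in WT. There the groups overlapped, and the change was -0.08 with a 95% confidence interval of -0.27 to 0.11 (adjusted p = 0.638 over all probe sets with 1 symbol).

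The numbers of these probe sets follow the order of genes along chromosomes: 90.6% of adjacent numbered probe sets with 1 symbol named genes of 1 chromosome. Of the 53 probe sets of the members, 52 stood beside genes of their own chromosome. The exception was the brighter Rgs3 probe set, whose number lies between those of Acsl4 and Ammecr1 on chromosome X, although Rgs3 itself lies on chromosome 4. The dimmer one stood beside genes of chromosome 4. Whether the fall of the brighter probe set is that of Rgs3 RNA was not tested, and the mean of both probe sets changed by -0.28 (adjusted p = 0.0191).

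**Figure D2:**
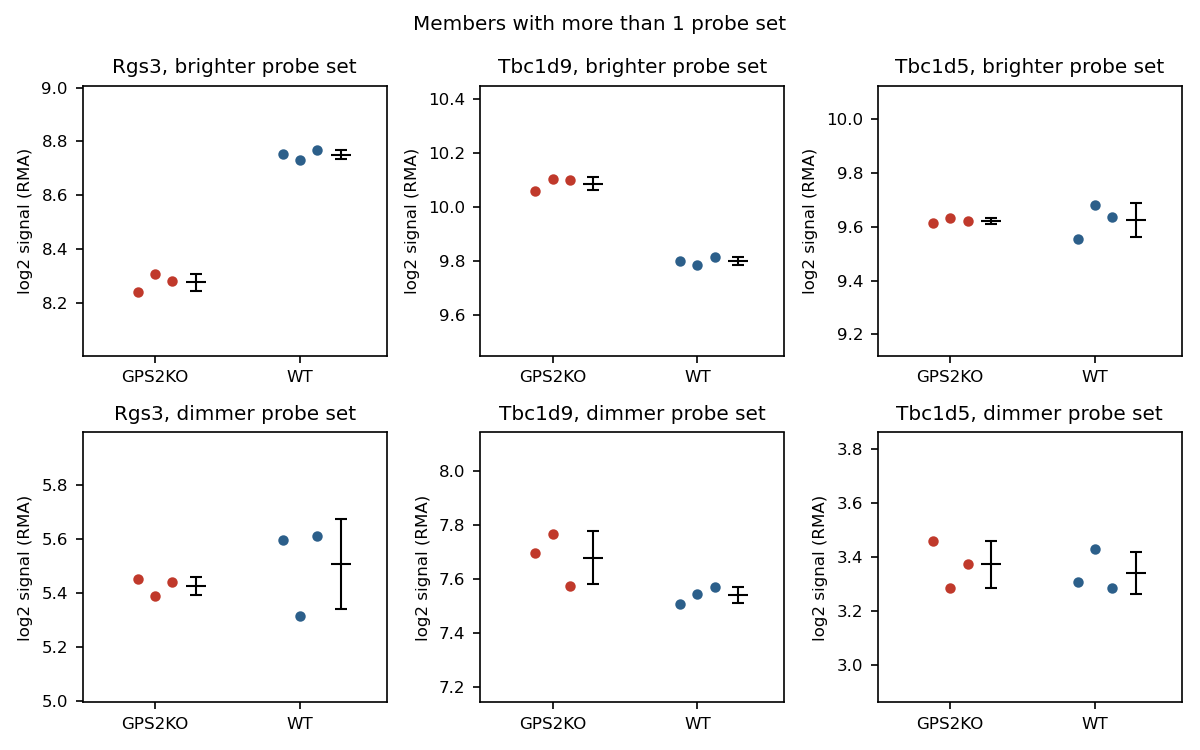
Signals of the 3 members with more than 1 probe set, Rgs3, Tbc1d9 and Tbc1d5, with the brighter probe set above and the dimmer one below (log2 RMA signal by array, GPS2KO left, WT right, mean ± SD of 3 arrays). The groups are apart in the brighter Rgs3 and Tbc1d9 probe sets and share a range in both Tbc1d5 probe sets and in the dimmer Rgs3 probe set.

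The other R4 members did not pass. Rgs4, known from brain and heart, came closest, at 5.31, 5.35 and 5.32 in GPS2KO and 5.20, 5.18 and 5.14 in WT. Its difference was 0.15 (adjusted p = 0.0556) without overlap between groups, and its signal lay under the dim limit. Rgs18, abundant in platelets and other blood cells, was at 10.68, 10.63 and 10.69 in GPS2KO and at 10.67, 10.57 and 10.61 in WT. These ranges overlapped, and the difference of 0.05 had a 95% confidence interval of -0.05 to 0.15 (adjusted p = 0.585). Rgs5, a gene of vascular mural cells, differed by 0.06, Rgs8 by -0.05 and Rgs13 by 0.03, all in dim signals.

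Rgs2, Rgs13, Rgs1 and Rgs18 are consecutive on chromosome 1 among the tested genes, in that order in the annotation of GRCm38.p6. Rgs2 and Rgs1 rose, while Rgs13 and Rgs18, on either side of Rgs1, had differences of 0.03 and 0.05 that did not pass. Uchl5, which precedes Rgs2, rose by 0.21 (adjusted p = 0.0130), and Uchl5, Rgs2 and Rgs1 were the 3 genes that rose in a window of 11 tested genes centred on Rgs1. Rgs8 and Rgs16 are also neighbours on chromosome 1, with changes of -0.05 and -0.33.

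In the R12 subfamily, Rgs12, a large scaffold with a PDZ domain, was at 7.22, 7.10 and 7.03 in GPS2KO and at 7.27, 7.34 and 7.33 in WT. All GPS2KO arrays lay below all WT arrays, and the difference of -0.20 missed the threshold (adjusted p = 0.0803), though it passed without GPS2KO replicate 1 (0.0433) and without dim genes (0.0393). Rgs14, which binds Gi as well as Rap and Raf proteins, differed by -0.07 (95% confidence interval -0.18 to 0.03). Of the RZ subfamily, named for its action on Gz, Rgs19 was at 11.72, 11.59 and 11.70 in GPS2KO and 11.68, 11.77 and 11.72 in WT. Its groups overlapped, and the difference of -0.05 had an interval of -0.17 to 0.06 (adjusted p = 0.592). Rgs17 and Rgs20 differed by -0.09 and 0.05 in dim signals.

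The R7 subfamily works as a complex with the G beta 5 subunit, mostly in neurons and photoreceptors, and is tied to membranes by Rgs7bp or Rgs9bp. None of its 4 tested genes, Rgs6, Rgs7, Rgs9 and Rgs11, passed in limma, and only Rgs6 had an unadjusted p under 0.05, with a difference of 0.11 (adjusted p = 0.217). Of all 18820 tested genes, 3906 had an unadjusted p under 0.05 in limma. The signals of Rgs6, Rgs7 and Rgs9 were dim, and Rgs11 differed by 0.08 (95% confidence interval -0.04 to 0.20). Rgs7bp, by contrast, had the largest change of all 50 members. It was at 6.14, 6.39 and 6.23 in GPS2KO, against 5.73, 5.57 and 5.53 in WT. It rose by 0.64 (SE 0.0771, 1.56-fold, 95% confidence interval 0.46 to 0.82, adjusted p = 0.00304). The groups did not overlap and the call held without any 1 of the arrays, but the WT mean of 5.61 ± 0.11 lay just above the dim limit of 5.49. Rgs9bp, at 5.84 to 6.17 in GPS2KO and 5.74 to 6.10 in WT, overlapped between groups and differed by 0.11 (95% confidence interval -0.14 to 0.36).

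**Figure D3:**
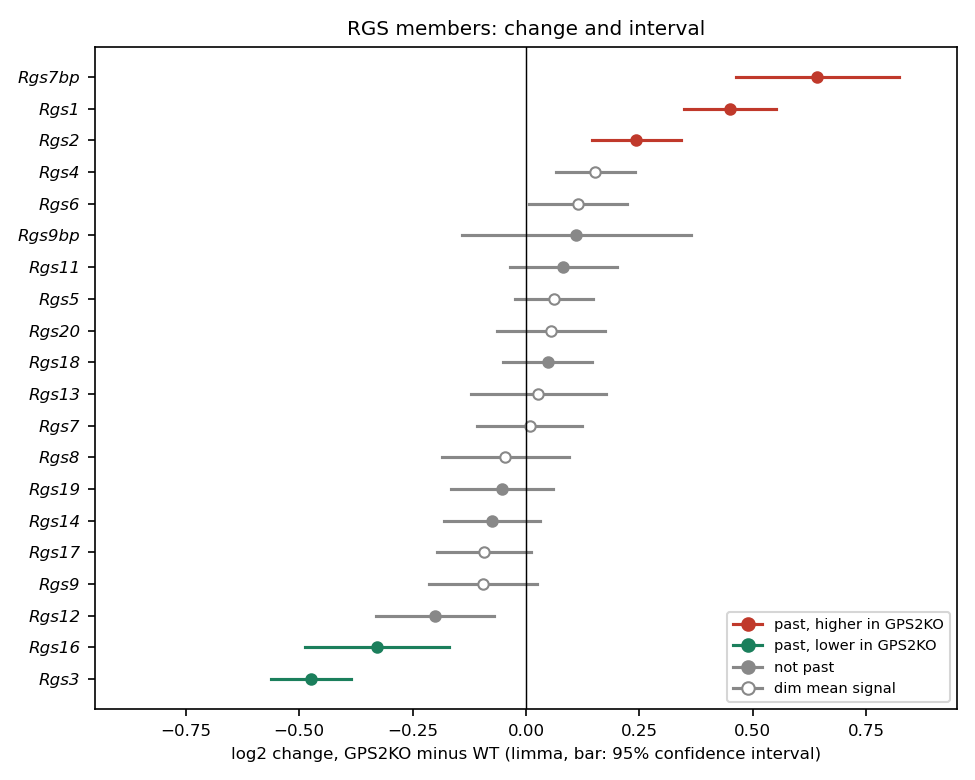
Change of each of the 20 RGS genes (log2, GPS2KO minus WT) with limma's 95% confidence interval, ordered by size, with open points for dim signals. Rgs7bp, Rgs1 and Rgs2 lie to the right, Rgs16 and Rgs3 to the left, and the 15 genes that did not pass lie between -0.20 and 0.15.

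Among the TBC genes, the fall and the rise with the smallest adjusted p were those of Tbc1d8 and Tbc1d9, related proteins that each carry a pair of GRAM domains beside the TBC domain. Tbc1d8 was at 8.02, 7.98 and 7.97 in GPS2KO, against 8.32, 8.38 and 8.29 in WT. It fell by 0.34 (SE 0.0412, adjusted p = 0.00310), with means of 7.99 ± 0.03 in GPS2KO and 8.33 ± 0.05 in WT. A further probe set that names both Rpl31 and Tbc1d8 was left out of the test and differed by 0.02.

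Tbc1d9 was at 10.06, 10.10 and 10.10 in GPS2KO and at 9.80, 9.79 and 9.82 in WT. It rose by 0.29 (SE 0.0367, adjusted p = 0.00396) without overlap between groups. Its dimmer probe set was at 7.70, 7.77 and 7.57 in GPS2KO and at 7.51, 7.54 and 7.57 in WT, a difference of 0.14 in the same direction that did not pass (adjusted p = 0.224). The lowest GPS2KO array there lay only just above the highest WT array. The calls of Tbc1d8 and Tbc1d9 held without any 1 of the 6 arrays, at adjusted p of at most 0.0184 and 0.0232.

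The closest relatives of this pair did not pass. Tbc1d9b, a paralogue of Tbc1d9, was at 10.16, 10.13 and 10.14 in GPS2KO and at 9.98, 10.02 and 9.92 in WT. All its GPS2KO arrays lay above all WT arrays, and the difference of 0.17 had an adjusted p = 0.0564. It passed when limma's variance prior followed the mean signal, a variance trend (0.00768), without dim genes (0.0218) and after centring on the tested genes (0.0415). Tbc1d8b, on chromosome X, overlapped between groups and differed by 0.04 (95% confidence interval -0.09 to 0.17). Within arrays, the change of Tbc1d8 was lower than that of Tbc1d9 by 0.63 and lower than that of Tbc1d8b by 0.38. In both cases the within-array differences did not overlap between groups. For Tbc1d8 and Tbc1d9 this was fixed by the signals of each gene, which lay apart in opposite directions, and it adds nothing to their calls. The differences did not overlap either for Tbc1d1 and Tbc1d4, Tbc1d2 and Tbc1d2b, or Tbc1d9 and Tbc1d9b. Nor did they for Tbc1d22a and Tbc1d22b, neither of which passed. Of the pairs compared, only Tbc1d10a and Tbc1d10b had differences that overlapped, so being apart is not particular to Tbc1d8. How often pairs of other genes are apart was not tested. For the 7 pairs of relatives compared, the exact two-sided permutation test gave p = 0.1 at the lowest, which is the smallest it can give. After Benjamini-Hochberg adjustment the lowest value was 0.117.

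Tbc1d12, a partner of Rab11 on recycling endosomes, was at 8.94, 8.85 and 8.77 in GPS2KO, against 8.51, 8.56 and 8.57 in WT. It rose by 0.30 (SE 0.0517, adjusted p = 0.0139), and its GPS2KO arrays were more spread (SD 0.09) than its WT arrays (SD 0.03). Leaving out GPS2KO replicate 2 (adjusted p = 0.0530) or WT replicate 1 (0.0538) ended the call. Tbc1d14, which also acts at recycling endosomes and restrains autophagy, overlapped between groups and differed by -0.03 (95% confidence interval -0.13 to 0.06).

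Tbc1d1 and Tbc1d4 hold glucose transporter vesicles inside muscle and fat cells until they are phosphorylated. Tbc1d1 was at 10.03, 10.04 and 10.01 in GPS2KO and at 10.23, 10.25 and 10.24 in WT. It fell by 0.22 (SE 0.0355, adjusted p = 0.0117), with an SD of 0.02 in GPS2KO and 0.01 in WT, and the call ended without GPS2KO replicate 3 (adjusted p = 0.0547). Tbc1d4 was at 7.41, 7.51 and 7.45 in GPS2KO and at 7.51, 7.28 and 7.15 in WT, where the wide WT spread overlapped GPS2KO. Its difference of 0.14 had a 95% confidence interval of -0.06 to 0.34 (adjusted p = 0.426).

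Tbc1d16, an inactivator of Rab4A in human cells, was at 7.17, 7.23 and 7.14 in GPS2KO and at 7.33, 7.44 and 7.43 in WT. It fell by 0.22 (SE 0.0469, adjusted p = 0.0339) without overlap between groups. The call held only when WT replicate 1 was the array left out, and ended without any other 1 array, at adjusted p from 0.0585 to 0.115. Rab4a itself, a GTPase of rapid recycling to the cell surface, was at 7.48, 7.40 and 7.34 in GPS2KO, against 6.66, 6.67 and 6.79 in WT. It rose by 0.70 (SE 0.0550, 1.63-fold, adjusted p = 0.000479), and the call held without any 1 of the arrays.

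Of the EPI64 group, which acts on Rab27 and Rab35, 1 of 3 genes fell. All 3 lay above the dim limit, where 6.06% of all tested genes fell. Tbc1d10a was at 8.76, 8.69 and 8.66 in GPS2KO and at 8.87, 8.87 and 8.90 in WT. Its fall of 0.18 passed only just (adjusted p = 0.0491) and the call ended without any 1 of the 6 arrays, at adjusted p from 0.0510 to 0.154. Tbc1d10b had all GPS2KO arrays below all WT arrays, at 10.18 to 10.22 in GPS2KO and 10.30 to 10.34 in WT, with a difference of -0.11 (adjusted p = 0.123) that passed when dim genes were left out (0.0464) or a variance trend was used (0.0310). Tbc1d10c, an inhibitor of calcineurin in lymphocytes, overlapped and differed by -0.02.

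None of the 4 genes that act on Rab7, late endosomes or retromer passed in limma. An unadjusted p under 0.05, held by 3906 of all 18820 tested genes, was found for 1 of them. That was Tbc1d2, a Rab7 inactivator also called Armus, at 7.44, 7.50 and 7.43 in GPS2KO and 7.16, 7.30 and 7.30 in WT. The difference of 0.20 without overlap missed the threshold (adjusted p = 0.0567) and passed after quantile normalization (0.0336) and without dim genes (0.0255). Tbc1d15, likewise an inactivator of Rab7, Tbc1d2b and the retromer partner Tbc1d5 differed by 0.05, 0.04 and 0.00. Both Tbc1d5 probe sets had differences inside the spread between arrays, at 0.00 and 0.03.

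The remaining TBC genes did not pass. Tbc1d20, an inactivator of Rab1, was at 11.18, 11.15 and 11.14 in GPS2KO and at 11.14, 11.16 and 11.16 in WT, with an interval of the difference from -0.08 to 0.09. Tbc1d13, an inactivator of Rab35, was at 11.07, 11.01 and 11.02 in GPS2KO and 10.98, 11.04 and 11.04 in WT, with an interval from -0.08 to 0.11. Tbc1d22b differed by -0.13 (adjusted p = 0.187) and its paralogue Tbc1d22a by 0.09 (0.372). Tbc1d24, known for synaptic vesicle traffic, differed by 0.12 without overlap (0.217). Of the genes of cilia and centrosomes, Tbc1d30 differed by -0.19 (adjusted p = 0.194) and Tbc1d31 and Tbc1d32 by 0.01 and 0.03. Tbc1d7, a subunit of the TSC complex, and Tbc1d25, which binds LC3, both differed by 0.04. Tbc1d17, Tbc1d19 and Tbc1d23 differed by -0.03, -0.02 and -0.04, and Tbc1d21, a testis gene, by 0.08 in the dimmest TBC signal. Over the 24 TBC genes that did not pass, intervals reached no further than -0.37 and 0.34.

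**Figure D4:**
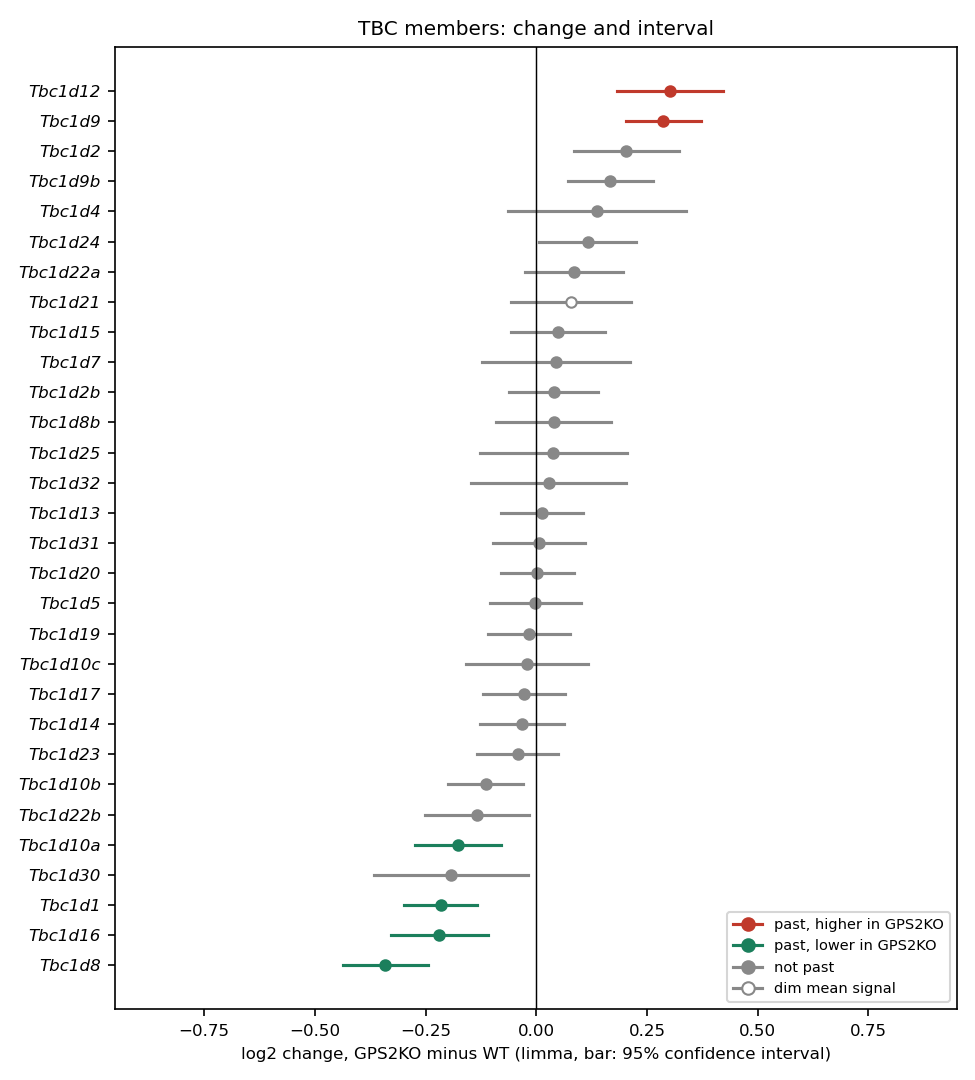
Change of each of the 30 TBC genes (log2, GPS2KO minus WT) with limma's 95% confidence interval, ordered by size, with open points for dim signals. Tbc1d12 and Tbc1d9 lie furthest to the right and Tbc1d8 furthest to the left, and the 24 genes that did not pass lie between -0.19 and 0.20.

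GPS2KO and WT arrays did not overlap for 10 of the 20 RGS genes and 11 of the 30 TBC genes, against 27.1% of all tested genes. The GPS2KO arrays were all above the WT arrays in 6 RGS and 6 TBC genes (11.9% of all tested genes) and all below in 4 RGS and 5 TBC genes (15.2%). Of the 11 calls, 5 held without any 1 of the arrays, those of Rgs1, Rgs3, Rgs7bp, Tbc1d8 and Tbc1d9. This is 45.5%, against 47.2% of the 1265 calls over all tested genes.

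Among the genes that RGS proteins act on or beside, 3 of 31 tested G protein subunits passed, a share of 9.68% beside 6.72% of all tested genes. Above the dim limit the share was 13.6%, beside 10.6% of all such genes. Among the 3 that passed, the gamma subunits Gng2 and Gng5 rose by 0.19 each (adjusted p = 0.0214 and 0.0458). Gna11, an alpha subunit of the Gq class, fell by 0.21 (0.0239). Leaving out 1 array at a time ended the calls of Gng2 and Gng5 in 6 of 6 cases and that of Gna11 in 5. Gnai2, an abundant Gi subunit of leukocytes, was at 12.82 to 12.85 in GPS2KO and 12.81 to 12.85 in WT. Of 13 other genes with an RGS domain, 0 rose and 1 fell in limma, a share of 7.69% beside 6.72% of all tested genes. Above the dim limit their share was 10%, beside 10.6% of all such genes. The gene that fell was Grk3, a kinase that desensitises receptors. It was at 6.28, 6.09 and 6.34 in GPS2KO and 6.79, 6.82 and 6.81 in WT, a fall of 0.57 (SE 0.0648, adjusted p = 0.00249).

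Of 21 G protein modulators and arrestins, among them Rgs7bp and Rgs9bp, 5 fell and 1 rose, which was Rgs7bp. This is a share of 28.6%, beside 6.72% of all tested genes. Above the dim limit, where 20 of them lay, the share was 30%, beside 10.6% of all such genes. This list too was chosen with earlier results of these data known, so its shares are not independent of them. Plcb2 and Plcb4, phospholipases C switched on by Gq or by beta-gamma subunits, fell by 0.60 and 0.56 (adjusted p = 0.000653 and 0.000659). Pik3r5, a regulatory subunit of phosphoinositide 3-kinase gamma, fell by 0.34 (adjusted p = 0.00578), and these 3 calls held without any 1 of the arrays. The adenylyl cyclase Adcy6 and the arrestin Arrb1 fell by 0.27 and 0.21 (adjusted p = 0.0190 and 0.0261), calls that ended in 4 and 6 of the 6 cases with 1 array left out.

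Of 29 macrophage G protein-coupled receptors, 5 rose and 8 fell. Ccr1, a receptor of inflammatory chemokines, rose by 1.03 (SE 0.0660, adjusted p = 0.000258), at 8.81, 8.71 and 8.59 in GPS2KO and 7.64, 7.76 and 7.62 in WT. The chemokine receptors Ccr2 and Cx3cr1 fell by 0.97 and 0.54 (adjusted p = 0.000194 and 0.000323), and C5ar2, a complement receptor, by 0.57 (0.000280). The share past the threshold was 44.8%, beside 10.6% of all genes above the dim limit, where all 29 receptors lay, and their median change was 0.00. The receptors were listed with earlier results of these data known, so this share is not independent of them.

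On the side of the TBC proteins, 2 of 56 Rab GTPases rose and 3 fell, a share of 8.93% near that of all tested genes. Beside Rab4a, Rab8b, a GTPase of vesicle delivery to the plasma membrane, rose by 0.20 (adjusted p = 0.0470). Rab15, Rab20 and Rab3b fell by 0.30, 0.24 and 0.24 (adjusted p = 0.00284, 0.0282 and 0.0461). Of these 5 calls, those of Rab4a and Rab15 held without any 1 of the arrays. Of 32 Rab exchange and escort genes, 3 rose and 0 fell in limma, a share of 9.38% beside 6.72% of all tested genes. Above the dim limit the share was 9.68%, beside 10.6% of all such genes. An unadjusted p under 0.05 was found for 11 of the 32, and for 3906 of all 18820 tested genes. The 3 that rose were Dennd1b, which activates Rab35, Rab3il1 and Rin2, an activator of Rab5. Their rises were 0.23, 0.18 and 0.18 (adjusted p = 0.0141, 0.0299 and 0.0313). Their calls ended in 2, 6 and 6 of the 6 cases with 1 array left out. Of 10 TBC-domain genes with other names 0 passed in limma, with 4 at an unadjusted p under 0.05. Of 5 further genes, for the GTPase-activating complex that inactivates Rab3, for the TSC complex and for its target Rheb, 0 passed in limma, with 1 at an unadjusted p under 0.05.

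**Figure D5:**
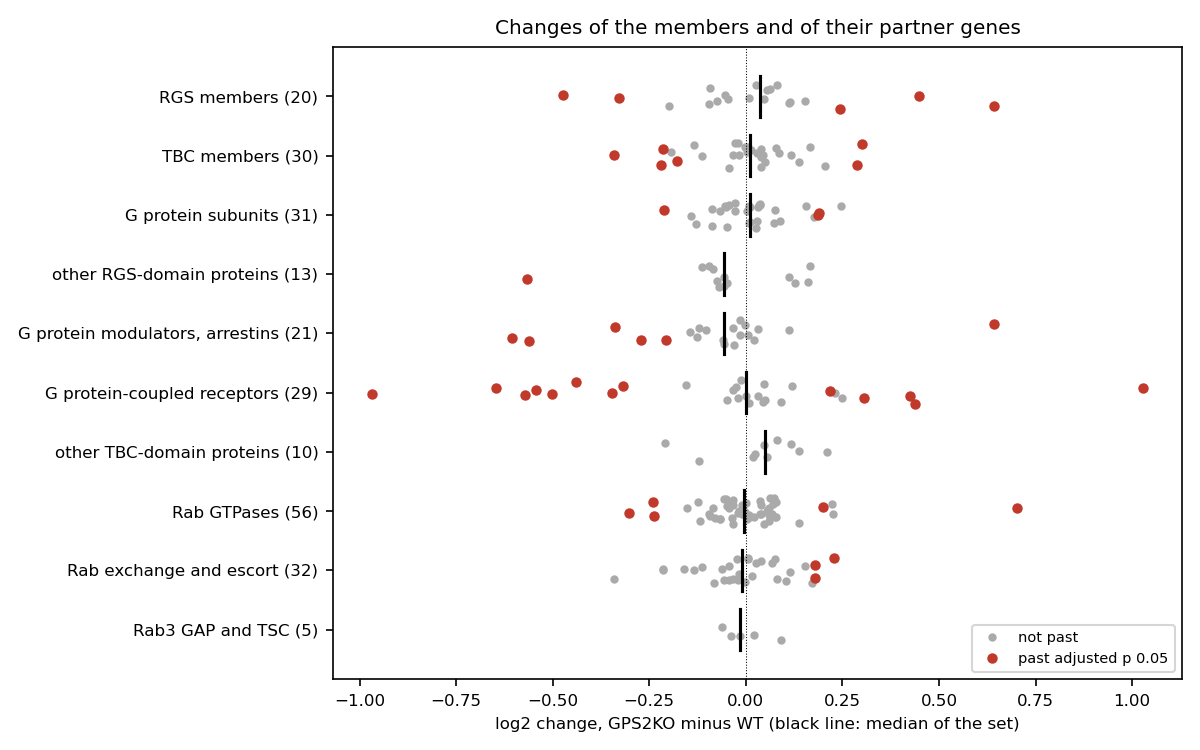
Changes (log2, GPS2KO minus WT) of the RGS and TBC members and of the 8 lists of partner genes, with 1 point for each gene, the number of tested genes in brackets and a line at each median. The medians of the sets lie between -0.06 and 0.05, while the receptors reach from -0.97 to 1.03.

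Of the 50 members, 37 had promoter entries in RefSeq, 50 entries in all, with 11 members having more than 1. Those past the threshold without an entry were Rgs1 and Tbc1d16. The median share of G and C was 59.8% over the members' entries and 52.4% over all 32851 entries, with a median of 15 and 6 CpG pairs in 250 bases. Both strands were searched for 8 motifs. The CCAAT box was in 32.0% of the members' entries and in 33.8% of all entries. The core of the interferon-stimulated response element, a pair of GAAA with any 2 bases between them, was in 0 of the 50 entries and in 2.98% of all entries, and the CRE TGACGTCA in 0 and in 1.55%. AP-1 sites TGANTCA were in 6.0% and 6.75%, E-boxes CACGTG in 10.0% and 6.02%, and the TATA box TATAAA in 10.0% and 12.4%. The PU.1 core GAGGAAGT was in 6.0% and 2.44%, and the NF-kappaB motif in 14% and 7.25%. The PU.1 core came from 3 entries of 2 members, Rgs12 and Rgs19, and the Rgs19 windows that hold it overlap each other. These shares count entries, and they were not adjusted for the members' higher share of G and C. The NF-kappaB motif occurred in the windows of Tbc1d1 and Tbc1d10a among members that passed. Among members that did not pass, it occurred in those of Rgs13, Tbc1d5, Tbc1d10b, Tbc1d14 and Tbc1d23. A match is a run of letters, not a tested binding site.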

How the data were processed

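Affymetrix arrays of 3 GPS2KO and 3 WT macrophage samples were used, grouped by their titles. The authors deposited log2 intensities made with RMA in the R package oligo, per the submitters' processing notes, which name no version. RMA equalises the distributions of arrays, which hides a shift common to most genes, and it gives no detection calls. Depth does not apply to arrays, whose number limits the precision.

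Of 35556 probe sets, 21218 had exactly 1 platform symbol, which gave 18820 genes. Genes were tested with lmFit and eBayes of limma 3.58.1 in R 4.3.3, two-sided, with Benjamini-Hochberg adjustment over all genes and a threshold of 0.05. The calculation was tested on simulated data. Members and lists were chosen with earlier results of these data known. Named by rule were all members past the threshold, the 5 of highest mean and the 4 of smallest p not past it in each family, Rgs7bp, Rgs9bp, Tbc1d5, Gps2 and up to 4 genes per partner list. Other members, and Gnai2, Adcy6, Arrb1, Rab8b and Uchl5, were named after their values were seen. Alternatives were quantile normalization, median centring, a variance trend, leaving out dim genes, averaging probe sets, a replicate block and leaving out each array. Centring on the tested genes was added after seeing the data. The labels give no batch.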

Additional observations from a re-analysis of the deposited data

How the results depend on the processing

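All 11 members past the threshold kept their direction in the 13 alternatives. Rgs1, Rgs3, Rgs7bp, Tbc1d8 and Tbc1d9 passed in each, and the other 6 lost their call in at least 1. Leaving out 1 array at a time gave 2 to 3 rises and 1 to 2 falls among RGS genes, 1 to 2 rises and 1 to 3 falls among TBC genes, and 322 to 376 rises and 419 to 503 falls over all tested genes. With 2 arrays in a group its spread is taken from the fit. Without dim genes there were 4 rises and 5 falls among TBC genes, and 808 rises and 1154 falls over all genes. Centring on the tested genes gave 4 TBC rises and 3 falls, so that rises made up 57.1% of TBC calls against 33.3% before. Over all genes rises made up 30.2% of calls after median centring and 53.7% after centring on the tested genes, against 43.1% before. A variance trend gave 926 rises and 1248 falls over all genes. Of the members not past the threshold, Rgs12, Tbc1d2, Tbc1d9b and Tbc1d10b passed without dim genes, Tbc1d9b and Tbc1d10b with a variance trend, Tbc1d2 after quantile normalization, Rgs4, Tbc1d2 and Tbc1d9b after centring on the tested genes, and Rgs12 without GPS2KO replicate 1.

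Same-numbered samples did not deviate together (correlations of 0.003, 0.026 and -0.006), so the numbers were not taken as pairs. With the replicate block 2 TBC genes fell, and 862 genes passed in all, against 1265. Rgs2 (adjusted p = 0.0531), Tbc1d10a (0.108) and Tbc1d16 (0.0625) lost their calls in that fit.

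Among partner lists, the G protein subunits past the threshold numbered 5 without dim genes, 0 with the replicate block and 0 to 1 with an array left out. Other RGS-domain genes numbered 3 with a variance trend, 3 without dim genes and 2 after centring on the tested genes. Other TBC-domain genes numbered 1 after median centring, 2 with a variance trend, 2 without dim genes and 0 to 1 with an array left out. Rab GTPases numbered 2 with the replicate block and 2 to 3 with an array left out. Rab exchange and escort genes numbered 5 after median centring, 8 with a variance trend, 7 without dim genes, 1 with the replicate block and 0 to 1 with an array left out. Modulators and arrestins numbered 4 to 5 and receptors 11 to 12 with an array left out. Calls over all tested genes moved as well, from 1265 to 1521 when arrays were centred on their medians. The variance trend gave 2174 such calls, and the fit on the 11292 genes above the dim limit gave 1962. The replicate block gave 862, centring on the tested genes 1227, and leaving out single arrays 749 to 842. Whether any list moved more than all tested genes did was not tested. Dim signals limit what can be seen for the 9 dim RGS genes and Tbc1d21.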

Other observations

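Some neighbours of the members on the chromosome passed the threshold, as did 6.72% of all tested genes. Whether neighbours passed more often than other genes was not tested. Npl, the neighbour of Rgs8 in the annotation's order of tested genes, rose by 0.78 (adjusted p = 0.000178, limma), while Rgs16 beyond Rgs8 fell. Osm, which encodes the cytokine oncostatin M and follows Tbc1d10a at a distance of 2 tested genes, rose by 0.52 (adjusted p = 0.00991). Zfp618, the neighbour of Rgs3 on chromosome 4, fell by 0.41 (adjusted p = 0.00221). The Rgs3 probe set numbered beside Zfp618 changed by -0.08 (limma adjusted p = 0.638). The fall called for Rgs3 came from the probe set numbered among chromosome X genes. Near Tbc1d16, Engase fell by 0.26 (adjusted p = 0.0271) and Slc26a11 rose by 0.30 (adjusted p = 0.0111). In windows of 11 tested genes, Tbc1d9, Tbc1d12 and Rgs7bp were the only genes that rose around themselves and Tbc1d8 and Tbc1d1 the only ones that fell, in the limma fit. These genes were named after their values were seen.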
